A study of Mus musculus with 38 samples.

Results

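The 7 genes described here, Tfcp2l1, Esrrb, Nanog, Tbx3, Nr5a2, Nr0b1 and Zfp42, encode transcription factors of the naive pluripotency network of mouse embryonic stem cells. They were chosen by name as rows of the deposited RNA-seq table, which lists 25965 genes, and all 7 were among the 14980 genes that passed the filter on low values. The libraries came from E14 cells, an XY line of 129/Ola origin grown without feeder cells on gelatin, so 1 cell line stands for every condition. In 2i/L medium the cells had 1 µM PD03259010 (the labels' spelling of the MEK inhibitor) and 3 µM CHIR99021, an inhibitor of the kinase GSK3, for 8 days (n = 3). In MEKi/L medium they had 1 µM PD03259010 alone for 8 days (n = 3), and in GSK3i/L medium 3 µM CHIR99021 alone for 24 days (n = 2, replicates 2 and 3) or 8 days (n = 3). In S/L medium, the common reference, they were kept in DMEM with fetal bovine serum for 8 days (n = 3). All 5 groups were plated in S/L the day before, all media held LIF, and the 3 inhibitor media shared the serum-free base N2B27. Each difference from S/L is therefore a change of base medium together with the inhibitor, since no group had N2B27 and LIF without an inhibitor. The 24-day GSK3i/L group differs from every other group in days of culture too, since no other RNA-seq group was kept for 24 days.

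Naive pluripotency is the state of the early epiblast of the mouse blastocyst, and embryonic stem cells hold it when LIF signals through STAT3 while the MEK-ERK cascade is kept low. Inhibition of GSK3 stabilises beta-catenin, which relieves the repressor TCF7L1 (the product of Tcf7l1) from its targets, of which Esrrb is the best known. Tfcp2l1 is known as a transcriptional target of LIF and STAT3, and Nanog as a factor that can keep the cells self-renewing when LIF is withdrawn. Tbx3 is a T-box factor that also acts downstream of LIF. Esrrb, Nr5a2 and Nr0b1 are orphan nuclear receptors: Esrrb and Nr5a2 bind DNA as monomers at the letters AAGGTCA, while Nr0b1 (DAX1) lacks the usual DNA-binding domain and acts mostly as a corepressor. Zfp42 (REX1) is a zinc finger protein and is widely used to carry a reporter of the naive state.

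On GRCm38, Tfcp2l1 lies on chromosome 1 (118627945 to 118685167, plus strand), Esrrb on chromosome 12 (86361117 to 86521628, plus), Nanog on chromosome 6 (122707489 to 122714633, plus) and Tbx3 on chromosome 5 (119670669 to 119684724, plus). Nr5a2 lies on chromosome 1 (136843584 to 136960427, minus), Nr0b1 on chromosome X (86191764 to 86195947, plus) and Zfp42 on chromosome 8 (43295068 to 43307009, minus). Tbx3 alone overlaps another gene of the table, Gm2301 on the minus strand (119611263 to 119671365), which averaged 3.56 RPM (reads scaled to a common sequencing depth) and reached at most 8.20 RPM. The sources used here do not say whether reads were counted by strand, but the lowest value of Tbx3 was 43.7 RPM.

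RefSeq promoter windows (GRCm38.p6), each 250 bases before and 50 after a transcript start, were found for 6 of the 7 genes, in 9 windows. The 250 bases before the start are shown for 3 of them. Tfcp2l1 had the largest difference between 2i/L and S/L, Esrrb is the textbook target of GSK3 inhibition, and Zfp42 was lower in 2i/L. Capitals mark matches, on either strand, to any of 6 motifs searched: AAGGTCA (ESRRB and NR5A2), TTCNNNGAA (STAT factors), CTTTGAA (TCF and LEF), CCNCNCCC (KLF and SP), ATGCAAAT (POU octamer) and AGGTGTGA (T-box). Overlapping matches run together.
Tfcp2l1, chr1:118627695-118627944, plus strand: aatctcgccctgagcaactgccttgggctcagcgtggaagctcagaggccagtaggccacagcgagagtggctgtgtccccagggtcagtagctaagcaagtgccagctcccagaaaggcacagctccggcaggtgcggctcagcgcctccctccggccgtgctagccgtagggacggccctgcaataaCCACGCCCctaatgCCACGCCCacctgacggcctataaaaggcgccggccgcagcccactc
Esrrb, chr12:86360867-86361116, plus strand: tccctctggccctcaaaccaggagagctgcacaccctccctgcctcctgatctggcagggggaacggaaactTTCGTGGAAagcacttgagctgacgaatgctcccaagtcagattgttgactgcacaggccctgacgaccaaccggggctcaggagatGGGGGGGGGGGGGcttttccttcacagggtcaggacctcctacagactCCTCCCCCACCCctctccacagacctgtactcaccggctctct
Zfp42, chr8:43307010-43307259, minus strand: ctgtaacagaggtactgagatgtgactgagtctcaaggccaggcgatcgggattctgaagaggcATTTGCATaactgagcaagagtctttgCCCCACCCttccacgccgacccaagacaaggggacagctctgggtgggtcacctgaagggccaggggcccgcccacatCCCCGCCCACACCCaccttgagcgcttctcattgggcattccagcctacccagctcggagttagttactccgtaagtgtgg
The Tfcp2l1 window has a pair of CCACGCCC matches just upstream of the start. The Esrrb window holds TTCGTGGAA, a match to the STAT letters that 8.3% of the 32851 windows of all genes also hold, and it was the only one of the 9 windows with that motif. The Zfp42 window holds ATTTGCAT, the octamer on the other strand, which occurred in 1.74% of all windows and in no other window of the 6 genes. CCNCNCCC was found in 8 of the 9 windows, and in 49.5% of all windows. AAGGTCA (4.72% of all windows), CTTTGAA (5.14%) and AGGTGTGA (1.28%) had no match in the 9 windows. The TFCP2L1 motif, which is not in capitals, was found in 1 window of Esrrb and in that of Nr0b1, against 29.5% of all windows. These matches are descriptions of the letters and were not tested for binding.

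Values are given as RPM, so they are not divided by transcript length and are compared between groups for 1 gene at a time. The 8 libraries of 2i/L, MEKi/L and 24-day GSK3i/L hold whole reads after unscaling, with 10550000 to 15760000 reads behind each. The 6 libraries of 8-day GSK3i/L and of S/L share 1 distribution of values (their sorted values differ by at most 0.083 log2 units above 2 RPM), so their depth is unknown, and comparisons between these and the other 8 libraries cross that processing difference. The lowest count of any of the 7 genes in the 8 libraries was 261 reads, which gives a counting CV of 6.19%. Libraries also differed in how strongly they represent long transcripts: the mean log2 RPM of 37 long transcripts minus that of 40 short ones was 0.76, 0.90 and 0.91 in 2i/L, 1.09, −1.51 and −1.10 in MEKi/L, −3.20 and −2.60 in 24-day GSK3i/L, 0.77, −1.24 and −2.33 in 8-day GSK3i/L, and −2.52, −2.19 and −2.07 in S/L. This difference, called the length score here, was thus higher in every 2i/L library than in every S/L library, and replicate 1 of MEKi/L and replicate 1 of 8-day GSK3i/L stood apart from the other replicates of their groups.

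The embryonic stem cell identity of the libraries was checked with 6 marker genes, none of which was at 0 in any library. Their summed level was 3149 to 3468 RPM in 2i/L, 3502 to 5094 RPM in MEKi/L, 5594 to 6006 RPM in 24-day GSK3i/L, 4185 to 4804 RPM in 8-day GSK3i/L and 5855 to 6384 RPM in S/L. The lower sum in 2i/L than in S/L lay mostly in Dppa5a (756 to 832 RPM, against 2219 to 2570 RPM) and Tdgf1 (475 to 684 RPM, against 1257 to 1765 RPM). Of the 6, Sox2 alone was higher in 2i/L (642 to 728 RPM) than in S/L (304 to 405 RPM). Summed fibroblast and mesenchymal markers (11 genes) were at 15.5 to 17.2, 6.07 to 11.4, 5.85 to 7.75, 106 to 256 and 13.6 to 16.5 RPM in the same 5 groups. They were thus highest in 8-day GSK3i/L, where 0 to 2 of the 11 were at 0, against 3 to 8 of the 11 in the libraries of the other groups. Summed trophoblast markers (9 genes) were at 157 to 178 RPM in 2i/L, 91.6 to 126 RPM in MEKi/L, 43.9 to 63.0 RPM for 24-day GSK3i/L, 59.2 to 88.7 RPM for 8-day GSK3i/L and 41.0 to 45.9 RPM in S/L. From 1 to 4 of the 9 were at 0 in a library, and the defining factor Elf5 was at most at 0.229 RPM. Most of the 2i/L sum came from Tfap2c (71.7 to 89.3 RPM) and Tead4 (55.2 to 66.2 RPM), while Cdx2, Gata3 and Hand1 reached at most 1.74, 0.610 and 0.0661 RPM there. Tfap2a was at 17.3 to 21.3 RPM in 2i/L, against 1.19 to 2.11 RPM in S/L. Krt7 and Cdx2 were also higher in 2i/L than in S/L, and Gata3, Hand1 and Ascl2 were lower. Of the 7 trophoblast markers that passed the filter, 5 were called higher and 1 lower in 2i/L than in S/L. Over all genes, 39.1% were called higher and 24.4% lower. Primitive streak and mesoderm markers (8 genes) summed to 24.5 to 28.5 RPM in 2i/L, 10.1 to 14.5 RPM in MEKi/L, 14.7 to 19.1 RPM for 24-day GSK3i/L, 17.6 to 27.4 RPM for 8-day GSK3i/L and 3.42 to 5.30 RPM in S/L, with 1 to 4 of the 8 at 0. Primitive endoderm markers (9 genes, at most 1 at 0) summed to 4.65 to 6.81 RPM in 2i/L, 6.82 to 8.64 RPM in MEKi/L, 15.1 to 53.0 RPM for 24-day GSK3i/L, 10.1 to 25.5 RPM for 8-day GSK3i/L and 10.7 to 17.4 RPM in S/L. The sum of the streak markers was thus higher in every serum-free library than in S/L, and that of the trophoblast markers highest in 2i/L. In MEKi/L the streak sum was mostly Gsc (6.92 to 10.8 RPM, against 0.154 to 0.215 RPM in S/L). So was that of 2i/L (Gsc 14.9 to 18.6 RPM), where T was at 1.98 to 4.66 RPM and Eomes at 4.56 to 7.09 RPM. T was lower in MEKi/L (0.127 to 0.288 RPM) than in S/L (0.379 to 1.62 RPM). The median log2 fold change of the 5 streak genes that passed the filter was −0.0085 in MEKi/L against S/L, and 0.17 over all genes. Neural markers (7 genes) summed to 83.4 to 110.3 RPM in 2i/L, 119 to 228 RPM in MEKi/L and 111 to 152 RPM in S/L, and to less in GSK3i/L. The part of these markers in the values of the 7 factors was not tested. In such bulk libraries, fewer cells of a type and less RNA per cell cannot be told apart.

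Tfcp2l1, the grainyhead-family factor, spanned the widest range. Its level was 1166, 1157 and 1250.1 RPM in 2i/L, 559, 297 and 346 RPM in MEKi/L, 145 and 220.2 RPM in 24-day GSK3i/L, 744, 572 and 262 RPM in 8-day GSK3i/L, and 57.5, 95.7 and 85.3 RPM in S/L. Every library of the 4 serum-free groups was above every S/L library, and the 3 libraries of 2i/L were above all others. The means ran from 2i/L (1191 ± 51.1 RPM, SD, n = 3) through 8-day GSK3i/L (526 ± 244, n = 3), MEKi/L (401 ± 139, n = 3) and 24-day GSK3i/L (182 ± 53.5, n = 2) to S/L (79.5 ± 19.7, n = 3). Of the neighbours in that order, 8-day GSK3i/L and MEKi/L did not pass the test of their difference.

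Esrrb was at 823, 721 and 848 RPM in 2i/L, 662, 376 and 447 RPM in MEKi/L, 248 and 385 RPM in 24-day GSK3i/L, 859, 713 and 354 RPM in 8-day GSK3i/L, and 190.3, 303 and 307 RPM in S/L. Its groups overlapped more than those of Tfcp2l1: replicate 3 of 8-day GSK3i/L was the lowest and replicate 1 the highest of its group, and the 24-day libraries fell on either side of the higher S/L values. The order of the means was that of Tfcp2l1, at 797 ± 67.3 RPM (SD, here and below with n as for Tfcp2l1) in 2i/L, 642 ± 259.7 RPM in 8-day GSK3i/L, 495 ± 149 RPM in MEKi/L, 317 ± 96.6 RPM in 24-day GSK3i/L and 267 ± 66.4 RPM in S/L. No pair of neighbours in this order passed the test.

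Nanog separated the media by whether MEK was inhibited. It was at 722, 678 and 773 RPM in 2i/L, 718, 876 and 827 RPM in MEKi/L, 475 and 388 RPM in 24-day GSK3i/L, 399.8, 404 and 570.4 RPM in 8-day GSK3i/L, and 349, 384 and 399 RPM in S/L. All 6 libraries with the MEK inhibitor were above all 8 libraries without it. MEKi/L (807 ± 80.9 RPM) and 2i/L (724 ± 47.2 RPM) did not pass the test of their difference, nor did the neighbours among 8-day GSK3i/L (458 ± 97.2 RPM), 24-day GSK3i/L (432 ± 61.9 RPM) and S/L (377 ± 25.5 RPM). The step between 2i/L and 8-day GSK3i/L did.

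Tbx3 was at 334, 284 and 328 RPM in 2i/L, 342, 199.5 and 223 RPM in MEKi/L, 77.9 and 104 RPM in 24-day GSK3i/L, 208, 148 and 89.7 RPM in 8-day GSK3i/L, and 48.1, 58.3 and 43.7 RPM in S/L. Every serum-free library was above the S/L libraries. Among the serum-free groups, 2i/L (315 ± 27.6 RPM) and MEKi/L (255 ± 76.5 RPM) overlapped, as did 24-day (90.7 ± 18.1 RPM) and 8-day GSK3i/L (149 ± 59.4 RPM). S/L averaged 50.0 ± 7.46 RPM, and no neighbours in the order 2i/L, MEKi/L, 8-day GSK3i/L, 24-day GSK3i/L and S/L passed the test.

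Nr5a2, the receptor also known as LRH-1, was at 124, 104 and 108 RPM in 2i/L, 83.2, 43.0 and 58.9 RPM in MEKi/L, 23.2 and 23.0 RPM in 24-day GSK3i/L, 75.6, 36.8 and 40.7 RPM in 8-day GSK3i/L, and 17.9, 16.9 and 24.7 RPM in S/L. The 2i/L libraries were above all others, and the 24-day libraries lay within the range of S/L. Its order was that of Tbx3, with 112 ± 10.6 RPM in 2i/L, 61.7 ± 20.3 RPM in MEKi/L, 51.0 ± 21.3 RPM in 8-day GSK3i/L, 23.1 ± 0.183 RPM in 24-day GSK3i/L and 19.8 ± 4.22 RPM in S/L. The steps between 2i/L and MEKi/L and between the 2 times of GSK3i/L passed the test.

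Nr0b1 and Zfp42 did not follow the other 5. Nr0b1 was at 72.1, 45.6 and 72.9 RPM in 2i/L, 85.0, 58.3 and 67.3 RPM in MEKi/L, 62.4 and 47.9 RPM in 24-day GSK3i/L, 132, 83.7 and 129.8 RPM in 8-day GSK3i/L, and 89.7, 98.9 and 126 RPM in S/L. All 3 S/L libraries were above every library of 2i/L, MEKi/L and 24-day GSK3i/L, and overlapped those of 8-day GSK3i/L. Its highest mean was in 8-day GSK3i/L (115 ± 27.4 RPM), followed by S/L (105 ± 18.7 RPM), MEKi/L (70.2 ± 13.6 RPM), 2i/L (63.5 ± 15.5 RPM) and 24-day GSK3i/L (55.2 ± 10.3 RPM), and no neighbours passed the test.

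Zfp42 was at 442, 348 and 346 RPM in 2i/L, 496, 643 and 723 RPM in MEKi/L, 752 and 555 RPM in 24-day GSK3i/L, 544, 350.2 and 885 RPM in 8-day GSK3i/L, and 715, 599 and 759 RPM in S/L. The 2i/L libraries lay below all libraries of MEKi/L, 24-day GSK3i/L and S/L. Replicates of 8-day GSK3i/L covered nearly the whole range of the gene. The order of the means of log2 values was S/L (691 ± 82.6 RPM), 24-day GSK3i/L (653 ± 139 RPM), MEKi/L (621 ± 116 RPM), 8-day GSK3i/L (593 ± 271 RPM) and 2i/L (379 ± 54.8 RPM), and no neighbours passed the test.

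**Figure D1:**
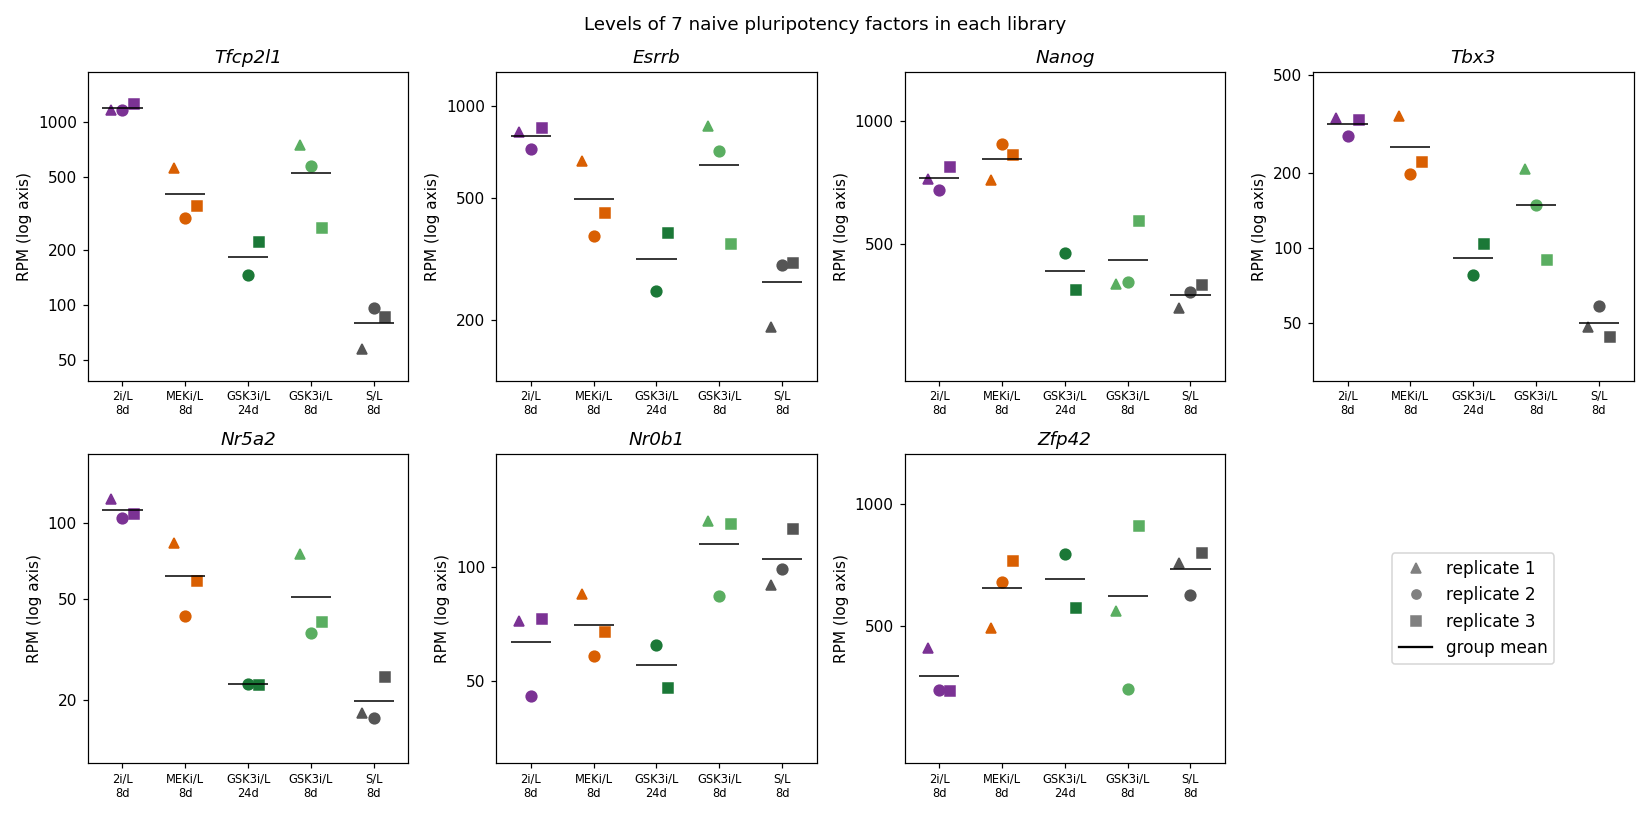
Level of each of the 7 genes in RPM (log axis) in every library, grouped by medium, with a line at each group's mean. Nanog lay between 678 and 876 RPM in the 6 libraries with the MEK inhibitor and between 349 and 570.4 RPM in the 8 without it, while Tfcp2l1 lay between 57.5 and 95.7 RPM in S/L and between 145 and 1250.1 RPM elsewhere.

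Differences between groups were tested with limma across all 14980 genes, and a gene is called higher or lower at a Benjamini-Hochberg adjusted p under 0.05. Tfcp2l1, Tbx3, Nr5a2, Esrrb and Nanog rose in 2i/L relative to S/L, and Nr0b1 and Zfp42 fell. The called genes were thus 7 of 7 in this comparison, in which 63.6% of all genes tested were called (39.1% higher, 24.4% lower). Groups did not overlap for any of the 7, against 74.9% of all genes. At such a share over all genes, the count by itself does not set the 7 apart. Tfcp2l1 was 15.3-fold higher, a log2 fold change of 3.94 ± 0.35 (SE; adjusted p = 8.2e-07), which placed it at rank 204 of 14980 from the most raised gene. Tbx3 was 6.33-fold higher (log2 2.66 ± 0.28, adjusted p = 3.5e-06) and Nr5a2 5.73-fold higher (log2 2.52 ± 0.27, adjusted p = 5.2e-06).

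Esrrb was 3.05-fold higher in 2i/L than in S/L (log2 1.61 ± 0.32, adjusted p = 0.00075) and Nanog 1.92-fold higher (log2 0.94 ± 0.18, adjusted p = 0.00062). The median log2 fold change of the 7 was 1.61 in this comparison, against 0.28 over all genes, and Nanog was 0.66 and Tfcp2l1 3.66 log2 units above it. Nr0b1 fell by 0.74 on the log2 scale (SE 0.24, adjusted p = 0.015) and Zfp42 by 0.87 (SE 0.28, adjusted p = 0.016). The Nr0b1 call was lost without S/L replicate 3 (adjusted p = 0.069) or 2i/L replicate 2 (0.091), and the Zfp42 call without S/L replicate 3 (0.052), 2i/L replicate 2 or 2i/L replicate 3 (0.053 each). With this length score as a covariate, Esrrb had a log2 fold change of 0.46 (adjusted p = 0.22) and Zfp42 of −0.31 (adjusted p = 0.53), while the other 5 stayed called.

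Tbx3, Tfcp2l1, Nr5a2, Nanog and Esrrb rose in MEKi/L relative to S/L. These 5 of 7 were called higher and none lower, where 40.8% of all genes were called (26.1% higher, 14.7% lower), and the median of the 7 was 1.09, against 0.17 over all genes. Tbx3 was 4.99-fold higher in MEKi/L (log2 2.32 ± 0.28, adjusted p = 2.5e-05) and Tfcp2l1 4.96-fold (log2 2.31 ± 0.35, adjusted p = 0.00016). Nr5a2 was 3.04-fold higher (log2 1.61 ± 0.27, adjusted p = 0.00045) and Nanog 2.13-fold (log2 1.09 ± 0.18, adjusted p = 0.00041). Esrrb was 1.84-fold higher (log2 0.88 ± 0.32), but this call (adjusted p = 0.041) was lost without any 1 of MEKi/L replicates 1 (0.16) and 3 (0.068) and S/L replicates 1 (0.17), 2 (0.055) and 3 (0.053), and with the score as a covariate (log2 0.23, adjusted p = 0.41). Nr0b1 did not overlap between the groups, which held for 55.1% of all genes, and was not called (log2 −0.58, 95% interval −1.10 to −0.06, adjusted p = 0.067). Nr0b1 was called lower in 6 of 14 alternative fits. It passed with all libraries put on 1 distribution (log2 −0.66, adjusted p = 0.041) and with libraries centred on their median (−0.76, 0.026). It also passed in a fit of these 2 groups alone (−0.58, 0.046), and with the score as a covariate (−0.76, 0.024). Without MEKi/L replicate 1 it passed too (log2 −0.73, adjusted p = 0.049). Zfp42 had a log2 fold change of −0.17 (95% interval −0.78 to 0.44, adjusted p = 0.66).

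In 8-day GSK3i/L, 4 of the 7 rose relative to S/L and none was called lower, where 31.1% of all genes were called (16.8% higher, 14.4% lower). The median log2 fold change of the 7 was 1.20, against 0.06 over all genes. Both groups of this comparison belong to the 6 libraries with a shared distribution. Tfcp2l1 was 6.19-fold higher in GSK3i/L than in S/L (log2 2.63 ± 0.35, adjusted p = 1.0e-04), Tbx3 2.83-fold (log2 1.50 ± 0.28, adjusted p = 0.0013) and Nr5a2 2.48-fold (log2 1.31 ± 0.27, adjusted p = 0.0032). Esrrb was 2.30-fold higher (log2 1.20 ± 0.32, adjusted p = 0.013), a call lost without S/L replicate 1 (0.067), GSK3i/L replicate 1 (0.054) or GSK3i/L replicate 2 (0.055). The part of TCF7L1 in this rise was not tested. Nanog was above every S/L library in all 3 GSK3i/L libraries, yet by little (log2 0.26, 95% interval −0.13 to 0.66, adjusted p = 0.29), and 40.9% of all genes did not overlap between these groups. With the score as a covariate Nanog was called, at 0.43 (adjusted p = 0.016). Nr0b1 (log2 0.12, 95% interval −0.39 to 0.64) and Zfp42 (log2 −0.32, 95% interval −0.93 to 0.29) were not called. Zfp42 was called lower without GSK3i/L replicate 3, its highest library (log2 −0.66, adjusted p = 0.037).

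After 24 days of GSK3 inhibition, 1 of the 7 was called higher than in S/L and 1 lower, where 25.1% of all genes were called (10.2% higher, 14.9% lower). The median of the 7 was 0.24, against −0.12 over all genes. These groups also differ in days of culture, which cannot be told apart from the medium here. Tfcp2l1 was 2.30-fold higher (log2 1.20 ± 0.39, adjusted p = 0.036) and Nr0b1 fell by 0.92 on the log2 scale (SE 0.27, adjusted p = 0.022). The Tfcp2l1 call was lost without S/L replicate 1 (0.11) or 3 (0.065) or without either 24-day library (0.057 without replicate 2, 0.27 without replicate 3). That of Nr0b1 was lost without S/L replicate 3 (0.084) or 24-day replicate 3 (0.19). Tbx3 did not overlap with S/L, which held for 57.1% of all genes, and was not called (log2 0.86 ± 0.31, adjusted p = 0.057). It was called when all libraries were put on 1 distribution (log2 0.98, adjusted p = 0.028). Esrrb (log2 0.25 ± 0.36), Nr5a2 (0.24 ± 0.31), Nanog (0.19 ± 0.21) and Zfp42 (−0.09 ± 0.32) had adjusted p between 0.54 and 0.86.

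**Figure D2:**
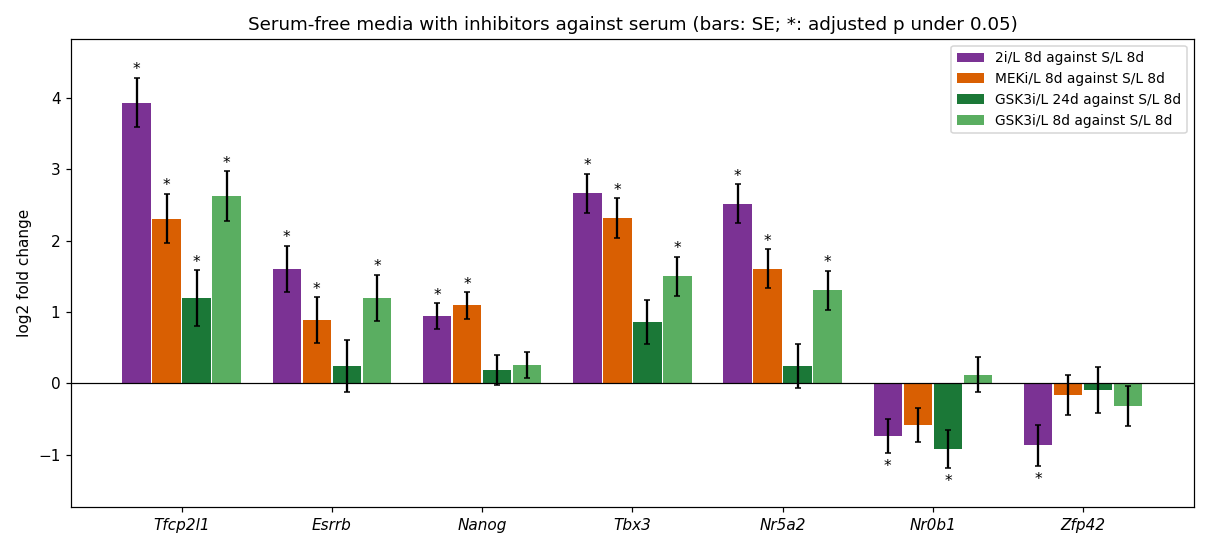
Log2 fold change of each gene in the 4 serum-free groups against S/L, with bars for the SE and asterisks for adjusted p under 0.05. Tfcp2l1 reached 3.94 in 2i/L and 1.20 in 24-day GSK3i/L, and Nr0b1 and Zfp42 were called lower in 2i/L. The 4 comparisons share the same 3 S/L libraries.

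The comparisons against S/L share their reference, so the effect of each inhibitor was also read between serum-free groups, which share the base medium. Adding the GSK3 inhibitor to the MEK inhibitor (2i/L against MEKi/L) came with 2 of the 7 called higher, Tfcp2l1 and Nr5a2, and none lower, where 12.9% of all genes were called (6.81% higher, 6.11% lower). Tfcp2l1 was 3.09-fold higher (log2 1.63 ± 0.35, adjusted p = 0.0076). Nr5a2 was 1.88-fold higher (log2 0.91 ± 0.27), with an adjusted p of 0.042 that went to between 0.094 and 0.19 without any 1 of 2i/L replicates 1, 2 and 3 and MEKi/L replicates 2 and 3, and to 0.088 with the score as a covariate (log2 0.48). Esrrb (log2 0.73 ± 0.32, adjusted p = 0.14) and Zfp42 (log2 −0.70 ± 0.28, adjusted p = 0.11) did not overlap between the groups, which held for 37.8% of all genes, and were not called. Leaving out replicate 1 of MEKi/L and of 8-day GSK3i/L, a choice made after their scores were seen, 5 of the 7 were called, adding Esrrb (log2 0.96, adjusted p = 0.019), Tbx3 (0.58, adjusted p = 0.046) and Zfp42 (−0.86, adjusted p = 0.033). Nanog (log2 −0.15 ± 0.18, adjusted p = 0.58) and Nr0b1 (−0.16 ± 0.24, adjusted p = 0.66) were not called.

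Adding the MEK inhibitor to the GSK3 inhibitor (2i/L against 8-day GSK3i/L) came with 4 of the 7 called higher and 1 lower, where 27.8% of all genes were called (19.8% higher, 8.02% lower). Tfcp2l1 was 2.48-fold higher in 2i/L (log2 1.31 ± 0.35, adjusted p = 0.013), Nr5a2 2.32-fold (log2 1.21 ± 0.27, adjusted p = 0.0053), Tbx3 2.24-fold (log2 1.16 ± 0.28, adjusted p = 0.0073) and Nanog 1.60-fold (log2 0.68 ± 0.18, adjusted p = 0.015). Nr0b1 fell by 0.86 (SE 0.24, adjusted p = 0.017). Esrrb did not pass (log2 0.40 ± 0.32, adjusted p = 0.35), nor did Zfp42 (−0.55 ± 0.28, adjusted p = 0.15), which passed without GSK3i/L replicate 2 (−0.88, adjusted p = 0.031). The Nanog call was lost without GSK3i/L replicate 2 (0.059) or 2i/L replicate 3 (0.061) and with libraries centred on their median (log2 0.37, adjusted p = 0.18). The Nr0b1 call was lost without GSK3i/L replicate 3 (0.054) or 2i/L replicate 2 (0.092). The Tfcp2l1 call was lost with the score as a covariate (log2 0.55, adjusted p = 0.064).

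Between the single inhibitors at 8 days (MEKi/L against GSK3i/L), Nanog was the 1 gene of the 7 called in the fit without the replicate number, where 17.8% of all genes were called (12.2% higher, 5.65% lower). It was 1.78-fold higher in MEKi/L (log2 0.83 ± 0.18, adjusted p = 0.0055) and its groups did not overlap, which held for 27.7% of all genes. It stayed called without each library in turn, but not in a fit of these 2 groups alone (adjusted p = 0.090). Tbx3 (log2 0.82 ± 0.28, adjusted p = 0.055) and Nr0b1 (−0.70 ± 0.24, adjusted p = 0.058) were near the threshold. The comparison crosses the processing difference between the libraries. Nr0b1 was called lower with all libraries put on 1 distribution (−0.78, adjusted p = 0.034) and with libraries centred on their median (−0.88, 0.023). With the score as a covariate, Nr0b1 (−0.75, adjusted p = 0.0095) and Tbx3 (0.67, 8.0e-04) were both called. The deviations of same-numbered replicates of these 2 groups correlated over all genes (r = 0.669, 0.115 and 0.401 for numbers 1, 2 and 3). Those of GSK3i/L replicate 3 and MEKi/L replicate 2 did so too (r = 0.38), so the numbers do not clearly pair the samples. With the replicate number as a block, a pairing read from these data, 3 of the 7 were called: Nanog (adjusted p = 0.0074), Tbx3 (log2 0.82, adjusted p = 0.043) and Nr0b1 (−0.70, adjusted p = 0.047). Tbx3 passed without GSK3i/L replicate 1 (log2 1.10, adjusted p = 0.0087) or MEKi/L replicate 2 (0.97, 0.047), and Nr0b1 without GSK3i/L replicate 2 (−0.92, 0.024) or MEKi/L replicate 1 (−0.85, 0.040). Tfcp2l1 and Esrrb were lower in MEKi/L by less than the SE of the difference (log2 −0.32 ± 0.35 and −0.32 ± 0.32). Both were called lower with the score as a covariate (−0.50, adjusted p = 0.029, and −0.48, adjusted p = 0.040).

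Some of the 7 were called lower after 24 than after 8 days of GSK3 inhibition, in a comparison that crosses the processing difference between the libraries. Between 24-day and 8-day GSK3i/L, 3 of the 7 were called lower and none higher, where 17.5% of all genes were called (4.30% higher, 13.2% lower). Tfcp2l1 fell by 1.43 (SE 0.39, adjusted p = 0.028), Nr5a2 by 1.07 (SE 0.31, adjusted p = 0.033) and Nr0b1 by 1.05 (SE 0.27, adjusted p = 0.024). The groups did not overlap for these 3, as for 46.4% of all genes, and the median of all genes was at −0.19. All 3 calls were lost without GSK3i/L 8-day replicate 1 or without either 24-day library (adjusted p between 0.074 and 0.21), and with the score as a covariate (adjusted p between 0.088 and 0.25). In a fit of these 2 groups alone, none of the 3 was called (adjusted p between 0.16 and 0.17). With all libraries put on 1 distribution, Nr0b1 stayed called (adjusted p = 0.046), and Tfcp2l1 and Nr5a2 did not (0.052 each). The Tfcp2l1 call was also lost without 8-day replicate 2 (0.067). Without 8-day replicate 3, the one with the score nearest to the 24-day libraries, 5 were called, with Esrrb (log2 −1.34, adjusted p = 0.0059) and Tbx3 (−0.97, adjusted p = 0.012) added. Nanog (log2 −0.07 ± 0.21) and Zfp42 (0.23 ± 0.32) were not called.

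Set against the 24-day group, 2i/L had 5 of the 7 called higher and 1 lower, where 57.8% of all genes were called (39.7% higher, 18.1% lower). Both groups belong to the 8 libraries with whole reads, but they also differ in days of culture. Tfcp2l1 was 6.67-fold higher in 2i/L (log2 2.74 ± 0.39, adjusted p = 1.1e-04), Nr5a2 4.85-fold (log2 2.28 ± 0.31, adjusted p = 7.9e-05), Tbx3 3.50-fold (log2 1.81 ± 0.31, adjusted p = 4.0e-04), Esrrb 2.57-fold (log2 1.36 ± 0.36, adjusted p = 0.0057) and Nanog 1.68-fold (log2 0.75 ± 0.21, adjusted p = 0.0069). Zfp42 fell by 0.78 (SE 0.32, adjusted p = 0.049), a call lost without any 1 library of the 2 groups (adjusted p between 0.052 and 0.29). Esrrb lost its call without 24-day replicate 2 (0.085) and Nanog without 24-day replicate 3 (0.074) and with libraries centred on their median (log2 0.36, adjusted p = 0.18). The score differed most between these groups, and with it as a covariate 3 of the 7 were called, with Esrrb at −0.03 (adjusted p = 0.97), Tbx3 at 0.54 (0.17) and Zfp42 at −0.10 (0.90).

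MEKi/L had 4 of the 7 called higher than 24-day GSK3i/L and none lower, where 41.0% of all genes were called (29.8% higher, 11.1% lower). These were Tbx3 (log2 1.46 ± 0.31, adjusted p = 0.0025), Nr5a2 (1.36 ± 0.31, adjusted p = 0.0037), Tfcp2l1 (1.11 ± 0.39, adjusted p = 0.034) and Nanog (0.90 ± 0.21, adjusted p = 0.0040). The Tfcp2l1 call was lost without 24-day replicate 2 (0.26) or MEKi/L replicate 1 (0.12), and with the score as a covariate (log2 0.10, adjusted p = 0.82), as was that of Nr5a2 (0.61, adjusted p = 0.067). Esrrb (0.64 ± 0.36), Nr0b1 (0.34 ± 0.27) and Zfp42 (−0.08 ± 0.32) were not called. Days of culture differ between these groups as well.

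**Figure D3:**
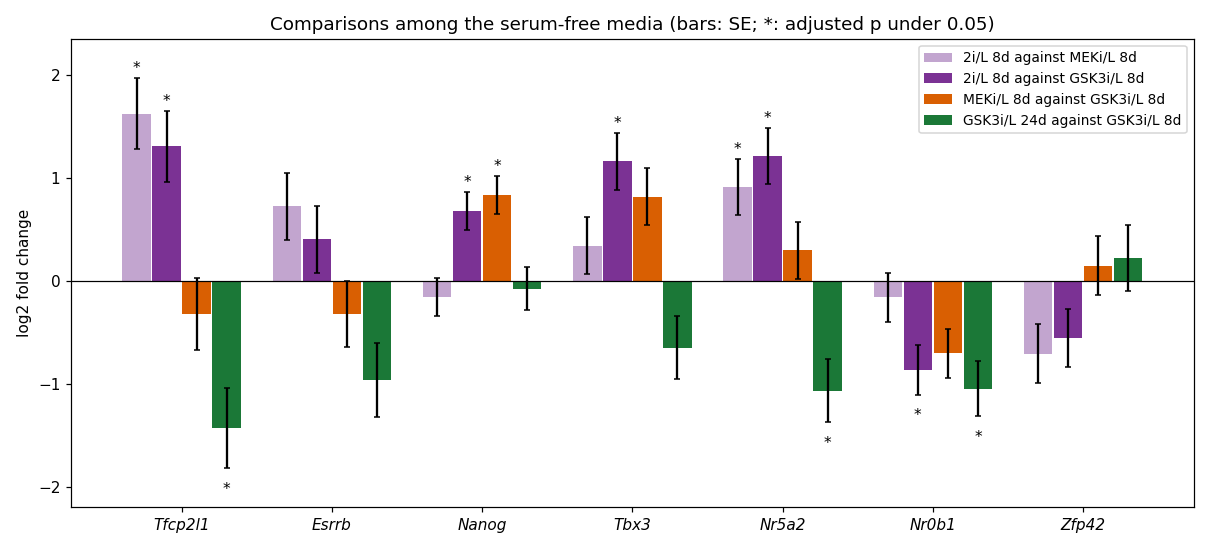
Log2 fold change of each gene in 4 comparisons between serum-free groups, with bars for the SE and asterisks for adjusted p under 0.05. Tfcp2l1 was called in all but MEKi/L against 8-day GSK3i/L, where Nanog was the only one of the 7 called in this fit, which has no replicate block.

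Replicates of 1 medium varied in a shared way. In MEKi/L and in 8-day GSK3i/L, Tfcp2l1, Esrrb, Tbx3 and Nr5a2 were all highest in replicate 1, the library with the highest length score of its group, and Nanog was at its lowest there. Tfcp2l1 was at 559 RPM in MEKi/L replicate 1, against 297 and 346 RPM in the other 2 replicates, and at 744 RPM in GSK3i/L replicate 1, against 572 and 262 RPM. In 2i/L, whose 3 scores lay within 0.76 to 0.91, Tfcp2l1 ranged from 1157 to 1250.1 RPM. Over the 14 libraries, deviations from the group mean correlated with those of the score at r = 0.90 for Tbx3, 0.87 for Tfcp2l1, 0.84 for Nr5a2 and 0.83 for Esrrb. The values were 0.33 for Nr0b1, −0.48 for Zfp42 and −0.71 for Nanog. Fits with the score as a covariate are given above, but whether transcript length caused this variation was not tested.

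**Figure D4:**
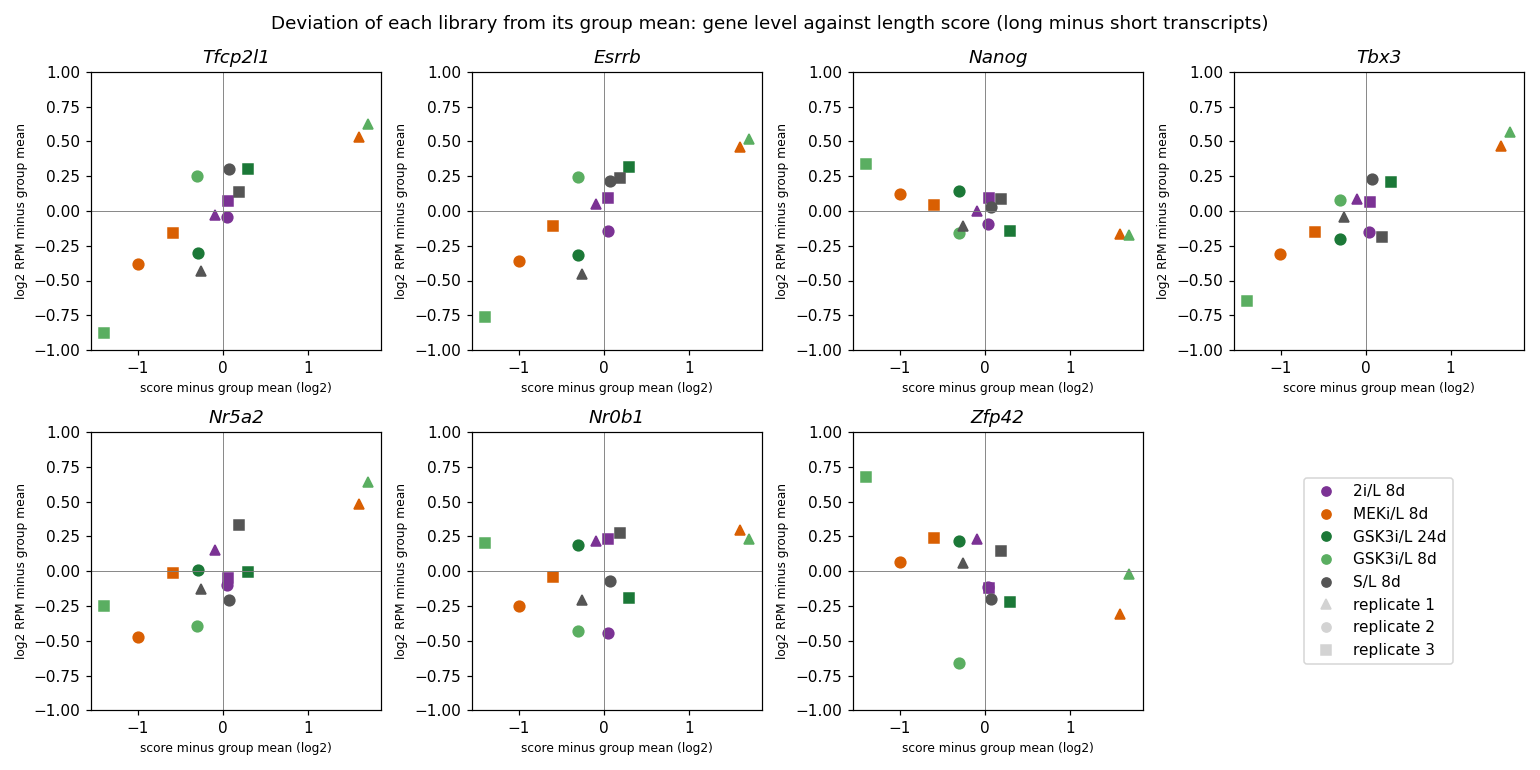
Log2 RPM of each gene against the length score of its library, both as deviations from the mean of the library's group, with 1 point per library, coloured by medium and shaped by replicate number. In MEKi/L and in 8-day GSK3i/L, the library with the highest score (1.09 and 0.77) also had the highest Tfcp2l1, Esrrb, Tbx3 and Nr5a2.

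Over the 14 libraries, Tfcp2l1, Esrrb, Tbx3 and Nr5a2 also varied most alike with other genes of the table. Among 9538 genes with a mean of at least 5 RPM, the 3 with the highest Pearson correlation of log2 RPM were Slc44a1, Acsl1 and Ly75 for Tfcp2l1 (r = 0.99 each), Eml4, Dnmt1 and Vac14 for Esrrb (0.98 each), Rbbp5, Camk1d and Kank1 for Tbx3 (0.99 each), and Foxn2, Slc39a9 and Zfp36l2 for Nr5a2 (0.99, 0.98 and 0.98). For Nanog they were Erlin1, Dio3 and Osbpl9 (0.96, 0.96 and 0.95). For Zfp42 they were Nop56, Mterfd3 and Eef1d (0.93, 0.92 and 0.89), and for Nr0b1, the least matched, the leading 2 were Glul and Lancl2 (0.88 each). The libraries fall into 5 groups and share the score differences, so these correlations describe the order of groups as much as the variation within them.

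The pathways that the media act on were read from lists of genes other than the 7. Against S/L, the shares of all genes called were 39.1% higher and 24.4% lower in 2i/L, 26.1% and 14.7% in MEKi/L, 10.2% and 14.9% in 24-day GSK3i/L, and 16.8% and 14.4% in 8-day GSK3i/L, and each count below is read beside them. Of 12 other naive pluripotency genes, 7 were called higher and 3 lower in 2i/L than in S/L, 5 higher and 2 lower in MEKi/L, 2 higher and 2 lower in 24-day GSK3i/L, and 4 higher and 1 lower in 8-day GSK3i/L. The counts called lower in 2i/L, MEKi/L and 24-day GSK3i/L are close to the shares over all genes. Prdm14, a zinc finger factor that holds the naive state by repressing other genes, was at 64.7 ± 8.77 RPM in 2i/L, 46.4 ± 15.7 RPM in MEKi/L, 10.1 ± 1.46 RPM in 24-day GSK3i/L, 18.8 ± 4.90 RPM in 8-day GSK3i/L and 8.71 ± 1.71 RPM in S/L. Klf4, a Kruppel-like factor downstream of STAT3, was at 396 ± 13.4, 187 ± 44.7, 157 ± 25.9, 229.5 ± 93.6 and 74.5 ± 9.57 RPM in the same order, and was called higher than in S/L in all 4 groups. Of 10 general pluripotency genes, 2 were called higher and 6 lower in 2i/L, 2 higher and 4 lower in MEKi/L, none higher and 6 lower in 24-day GSK3i/L, and none higher and 3 lower in 8-day GSK3i/L, with median log2 fold changes of −1.05, −0.56, −0.84 and −0.21. Pou5f1 (OCT4), a gene of that list which the naive and later pluripotent states share, was called in none of the 4 comparisons against S/L (log2 −0.34, −0.24, −0.25 and 0.03, adjusted p between 0.10 and 0.91).

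Of 9 genes of the GSK3 and TCF pathway that passed the filter, 7 were called higher and 1 lower in 2i/L than in S/L, 3 higher and 3 lower in MEKi/L, 2 higher and 2 lower in 24-day GSK3i/L, and 5 higher and none lower in 8-day GSK3i/L. Axin2, a feedback gene of beta-catenin, was at 67.0 ± 9.65 RPM in 2i/L, 4.87 ± 1.35 RPM in MEKi/L, 23.9 ± 2.38 RPM in 24-day GSK3i/L, 49.1 ± 11.3 RPM in 8-day GSK3i/L and 5.32 ± 0.989 RPM in S/L. It thus rose relative to S/L wherever CHIR99021 was present, and was lower at 24 than at 8 days (log2 −1.02 ± 0.27, adjusted p = 0.025). Of 11 MEK-ERK target genes, 9 were called lower in 2i/L, 8 in MEKi/L, 4 in 24-day GSK3i/L and 4 in 8-day GSK3i/L, with none higher, against shares over all genes of 24.4%, 14.7%, 14.9% and 14.4% lower. Some of these targets were thus called lower also in the medium without the MEK inhibitor. Spry4, a feedback inhibitor of that cascade, was at 1.00 ± 0.981 RPM in 2i/L and 0.657 ± 0.513 RPM in MEKi/L, against 81.5 ± 26.9 RPM in S/L. Tcf7l1, the repressor of Esrrb named above, was at 148 ± 17.6 RPM in 2i/L, 168 ± 55.3 RPM in MEKi/L, 12.0 ± 1.43 RPM in 24-day GSK3i/L, 44.9 ± 10.2 RPM in 8-day GSK3i/L and 54.8 ± 14.6 RPM in S/L.

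Of 9 genes of LIF and STAT3 signalling, 7 were called higher and 1 lower in 2i/L than in S/L, 3 higher and 1 lower in MEKi/L, none higher and 2 lower in 24-day GSK3i/L, and 3 higher and 1 lower in 8-day GSK3i/L. Of all genes, 39.1% were called higher in 2i/L and 26.1% in MEKi/L, so that the count in MEKi/L is near the share over all genes. Stat3 was at 148 ± 3.87 RPM in 2i/L, 112 ± 37.1 RPM in MEKi/L, 79.3 ± 28.2 RPM in 24-day GSK3i/L, 111 ± 37.9 RPM in 8-day GSK3i/L and 56.6 ± 6.11 RPM in S/L. It was called higher than in S/L in all but the 24-day group (log2 0.45 ± 0.31, adjusted p = 0.32). Of 12 formative and primed genes, 11, 9, 10 and 9 were called lower than in S/L in 2i/L, MEKi/L, 24-day GSK3i/L and 8-day GSK3i/L, where 24.4%, 14.7%, 14.9% and 14.4% of all genes were, and 1 was called higher, in MEKi/L. That gene was Otx2, a factor of the step out of the naive state, at 130.1 ± 9.19 RPM in MEKi/L, against 40.6 ± 12.4 RPM in S/L (log2 1.72 ± 0.29, adjusted p = 0.00039). Otx2 was at 45.1 ± 12.0 RPM in 2i/L, where Tfcp2l1, Esrrb, Tbx3 and Nr5a2 had their highest means.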

How the data were processed

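RNA-seq libraries were made from poly(A) RNA with a directional kit and sequenced as 50-base single reads, per the labels' protocols. Per the submitters' processing notes, Trim Galore (version 0.6.5), HISAT2 and the GRCm38 build were used (Bismark 0.22.3 is also named). What annotation, counting options and strand setting were used is not given in the sources used here. Deposited by the authors is 1 table of log2 RPM values for 25965 genes. In 8 libraries at least 99.96% of values were whole reads within 0.02, with 0 reads at the value of 0.9 read. In 6 libraries the sorted values match each other, a step not described in the sources used here.

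The 14980 genes at or above 0.5 RPM in no fewer than 3 of the 14 libraries were tested on the log2 scale with limma 3.58.1 (R 4.3.3), with trend and robust moderation, 1 fit over 5 groups and Benjamini-Hochberg adjustment over all genes, in 10 comparisons. All 7 factors are named in every comparison. Of the other lists, counts are given, with values for a fixed set of genes, and the 3 genes most alike each factor are named by Pearson correlation, except 1 for Nr0b1 that is not reported here. The design text calls the RNA samples biological replicates, and p-values measure the spread between them. Between MEKi/L and 8-day GSK3i/L alone, the deviations of every same-numbered pair correlated over 0.1 (r = 0.669, 0.115 and 0.401). There, GSK3i/L replicate 3 and MEKi/L replicate 2 also correlated (r = 0.38), so the numbers do not clearly pair the samples. Any pairing is read from the data, and the fit without the block is the one reported throughout. The factors and lists were chosen with earlier results of these data known. The limma fit was tested on simulated data. Alternatives were quantile normalization, median centring, no filter, log2(RPM + 1), fits of 2 groups alone, the replicate number as a block, the length score as a fitted term, limma-voom on recovered reads and each library left out. The 24 bisulfite samples were not analysed here.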

Additional observations from a re-analysis of the deposited data

How the results depend on the processing

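Of the log2 fold changes of the 7 factors over 10 comparisons and all alternatives, 808 kept direction and side of the threshold, 82 lost a call, 34 gained one and 28 changed sign. The cause of these changes was not tested.

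Leaving out libraries gave between 5 and 7 called factors for 2i/L against S/L, 4 and 5 for MEKi/L against S/L, 0 and 2 for 24-day GSK3i/L against S/L, 3 and 5 for 8-day GSK3i/L against S/L, 1 and 5 for 2i/L against MEKi/L, 4 and 5 for 2i/L against GSK3i/L at either time, 1 and 2 for MEKi/L against 8-day GSK3i/L, 3 and 4 for MEKi/L against 24-day GSK3i/L, and 0 and 5 for 24-day against 8-day GSK3i/L. The highest of 2i/L against MEKi/L, 5, came without both replicates 1 named in the report, a setting chosen after seeing the data, which gave 2 for MEKi/L against 8-day GSK3i/L.

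For 2i/L against MEKi/L, 1 factor was called with quantile normalization, median centring or the score as a covariate. For MEKi/L against 8-day GSK3i/L, 2 (Nanog and Nr0b1) were called with quantile normalization or centring, 0 in a fit of the 2 groups alone and 5 with the score. For 24-day against 8-day GSK3i/L, 1 was called with quantile normalization and 0 in the fit of 2 groups alone or with the score. The score gave 3 for 2i/L and 2 for MEKi/L against 24-day GSK3i/L. With the replicate block, 3 factors were called for MEKi/L against 8-day GSK3i/L and 1 for 24-day against 8-day GSK3i/L. In no comparison other than MEKi/L against 8-day GSK3i/L did every same-numbered pair correlate over 0.1. Over all comparisons, that one included, 8 of 26 same-numbered pairs correlated over 0.1 (range −0.314 to 0.669), and 8 of 14 libraries were closest to their own number. Beside those in the report, with centring, Esrrb in MEKi/L against S/L (adjusted p = 0.085), Nr5a2 in 2i/L against MEKi/L (0.074) and Tfcp2l1 in MEKi/L against 24-day GSK3i/L (0.082) were lost. With quantile normalization that Nr5a2 call (0.065) and Zfp42 in 2i/L against 24-day GSK3i/L (0.070) were lost. In fits of 2 groups alone, Esrrb in 8-day GSK3i/L against S/L (0.055) and Nanog in 2i/L against 8-day GSK3i/L (0.060) were lost.

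Signs changed in these cases, all log2 fold changes. With quantile normalization, Nr0b1 was at −0.20 for 2i/L and Zfp42 at 0.054 for MEKi/L against 24-day GSK3i/L. With centring, Nr0b1 was at −0.20 for 2i/L against 24-day GSK3i/L, Zfp42 at −0.024 for MEKi/L against 8-day GSK3i/L and Nanog at 0.0082 for 24 against 8 days. With the length score, against S/L, Zfp42 was at 0.15 in MEKi/L and Nr0b1 at −0.015 in 8-day GSK3i/L. Nanog was at 0.022 and Tbx3 at −0.12 for 2i/L against MEKi/L, and Esrrb at −0.26 for 2i/L against 8-day GSK3i/L. Against 24-day GSK3i/L, Esrrb was at −0.026 and Nr0b1 at −0.21 in 2i/L, and Esrrb at −0.25 and Zfp42 at 0.36 in MEKi/L. Tbx3 was at 0.019 and Zfp42 at −0.13 for 24 against 8 days. Of these, the Esrrb value for 2i/L against 24 days alone replaced a call.

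With libraries left out, 9 values not called with all libraries spanned 0. Zfp42 went between −0.66 and 0.014 for 8-day GSK3i/L against S/L, −0.31 and 0.13 for 24-day GSK3i/L against S/L, −0.18 and 0.49 for MEKi/L against 8-day GSK3i/L, −0.29 and 0.14 for MEKi/L against 24-day GSK3i/L, and −0.10 and 0.56 for 24 against 8 days. Esrrb was between −0.070 and 0.56 for 24-day GSK3i/L against S/L, and Nanog between −0.22 and 0.096 for 24 against 8 days. Nr0b1 was between −0.0076 and 0.41 for 2i/L against 24-day GSK3i/L, and −0.28 and 0.064 for 2i/L against MEKi/L.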
